A study of Danio rerio with 17 samples.

Results

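The livers of adult zebrafish 3 days after a local freezing injury (3 days post-cryoinjury, dpci) were compared with the livers of sham-operated fish across all genes in a bulk RNA-seq count table. The members of the comparison were the 4 samples labelled as injured and collected at day 3 and the 5 samples labelled sham, 9 of the 17 samples of the series, and 8412 of the 8513 entries of the table passed the filter on low counts and were tested. The remaining samples, 4 each at 1 and 7 dpci, entered the same fit and are used where the day 3 values are set directly against them. The study names Tg(fabp10a:NLS-mCherry) fish as the source of the livers in every group, in which the hepatocyte promoter fabp10a drives a nuclear red fluorescent protein, and its methods give adult fish of 4 to 9 months. The 3 dpci fish had the ventral lobe of the liver touched with a probe cooled in liquid nitrogen, whereas the sham fish had the same surgery without the freezing. The labels give the tissue only as liver, so the lobe behind each sample is not stated there. The paper describes separate sequencing of the injured part of the ventral lobe and of the contralateral lobe. Its methods keep the injured border apart from tissue of other lobes. The 3 dpci samples may therefore be dissected tissue near the injury rather than whole livers. Each pool held 3 livers per the methods, which give 3 replicates, while a legend speaks of 4 technical replicates per time point, so the p-values measure only the spread between these samples, which may be technical.

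Cold injury kills a block of liver tissue, and the fish liver replaces it by division of the surviving hepatocytes, biliary cells and stromal cells. The days after the lesion are known for the arrival of neutrophils and macrophages, for acute phase proteins made by hepatocytes under the control of cytokines, and for a transient deposit of collagen. Hepatocytes at the same time carry the bulk of amino acid, lipid and drug metabolism of the body, and the level of these enzymes is commonly read as their differentiated state.

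The counts summed over all entries ranged from 5806843 to 6490212 per 3 dpci sample and from 4804488 to 6800961 per sham sample. The 18 entries of the mitochondrial genome took 34.9 ± 3.35% of the counts at 3 dpci (SD, n = 4) and 47.0 ± 2.42% in sham (SD, n = 5). This was a difference of −12.1 percentage points without overlap of the groups (exact two-sided permutation test, p = 0.00794, the smallest value that 4 against 5 samples allow). Most of this share was 1 entry without a gene description. It alone took 25.06 to 33.36% of the counts at 3 dpci and 38.55 to 43.93% in sham. The difference in share is thus mainly that of this entry and does not describe the mitochondrial genes one by one. Values below are CPM, counts scaled to the size of the library, after scaling with TMM factors, which differ between the groups (geometric mean 1.035 at 3 dpci and 0.763 in sham). With column totals in place of TMM factors, the median over all genes of the log2 fold change was 0.42 instead of −0.01, and directions here are relative to the TMM median. Sham replicate 5 stood apart from the other sham samples. Its code in the labels is R1, whereas sham replicates 1 to 4 have codes from R61 to R64. The 3 dpci samples are R27, R29, R31 and R33. What the codes count is not stated. Were they an order of preparation, it could not be told apart from injury for sham replicates 1 to 4. Across genes, log2 CPM of sham replicate 5 correlated with the other sham samples at r = 0.793 to 0.846 and with the 3 dpci samples at 0.809 to 0.875, while sham replicates 1 to 4 correlated with each other at 0.836 to 0.879. Among the 3 dpci samples, replicate 4 had the lowest correlations with the others, 0.8 to 0.836, and replicates 2 and 3 the highest, 0.916.

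Calls required that the log2 fold change reached 1.5 upwards or downwards and that the unadjusted P of edgeR's quasi-likelihood test did not exceed 0.05. Both thresholds come from the methods, where an adjustment of P is not mentioned. By this rule 303 genes (3.6% of those tested) were called, 152 of them higher (1.81%) and 151 lower (1.8%) at 3 dpci than in sham. At an unadjusted P of at most 0.05 without a fold minimum there were 996 genes, beside 420.6 expected by chance. With Benjamini-Hochberg adjustment over all genes tested, 1 gene (0.0119%) passed 0.05, and DESeq2 passed 160, of which 56 were higher and 104 lower. The quasi-likelihood count was 50 without sham replicate 5 and 0 without sham replicate 1, 2 or 4. Regardless of the call, all 4 injured samples lay above all 5 sham samples for 192 genes (2.28%) and below them for 158 genes (1.88%). By chance alone, 1 of 126 arrangements of the samples separates a gene upwards and 1 of 126 downwards. Separation is therefore a description added to the call and not a further test. A positive log2 fold change was found for 49.0% of all genes tested. Scaled by column totals the same rule called 381 genes higher and 78 lower, and by column totals without the mitochondrial entries 194 higher and 122 lower. The call and the separation were both met by 104 genes (1.24%), 61 higher with a median log2 fold change of 2.11 and 43 lower with a median of −1.98. These are the changes described as holding in every injured sample. Their number was 186 without 3 dpci replicate 1 and 250 without sham replicate 5. The plot of fold change against level shows where these genes lie.

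**Figure D1:**
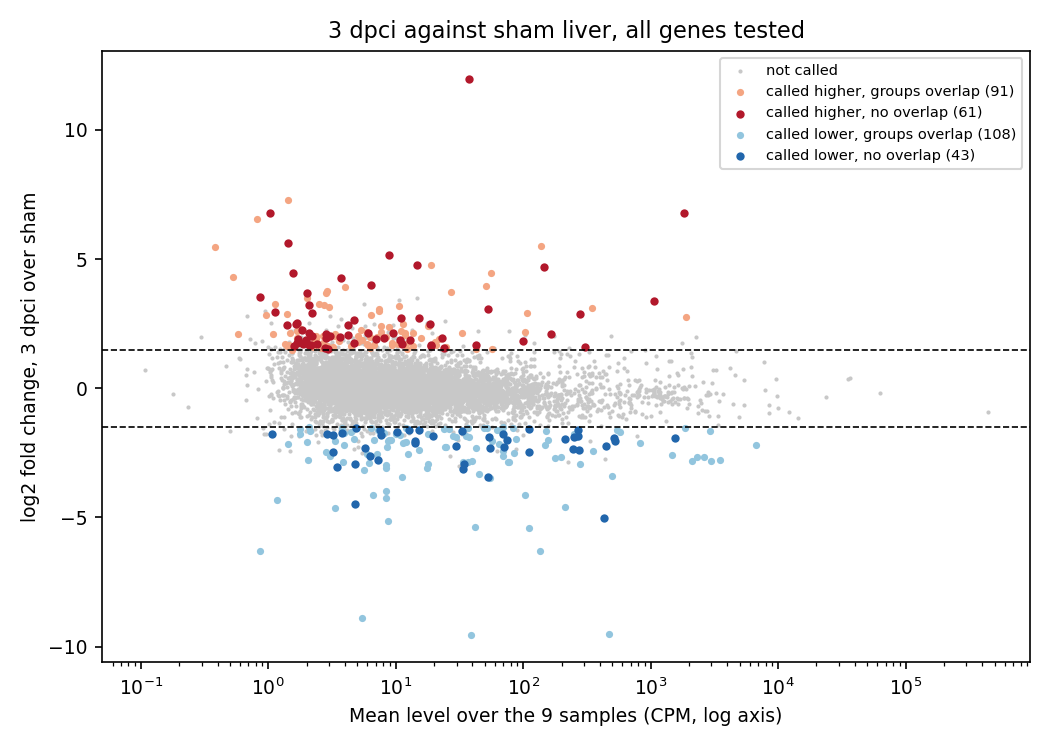
Log2 fold change at 3 dpci over sham (vertical axis) against the mean level over both groups (horizontal axis, CPM on a log axis) for the 8412 genes tested. Genes called and without overlap of the groups (61 higher and 43 lower) are dark, the other called genes are mid-toned and all other genes are grey, and the dashed lines mark the threshold of 1.5 in either direction.

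The sham sample that stood apart set much of what did not hold among the lower genes. Of the 108 genes called lower that overlapped, 53 overlapped only through sham replicate 5, and for 88 of the 151 genes called lower this sample was the lowest sham value. Without it, 96 of the called lower genes separated the groups, against 43 to 68 without any other single sample. Of the 91 genes called higher that overlapped, 10 overlapped only through sham replicate 5, and 71 of the called higher genes separated the groups without it, against 64 to 80 without any other single sample. When genes were called without sham replicate 5 and then measured against that sample alone, the 193 lower genes kept a median share of 0.184 of their log2 difference and the 238 higher genes 0.301, against 0.779 to 1.13 and 0.566 to 0.931 when any other sham sample was left out in the same way. The genes described as separated below lie beyond sham replicate 5 as well as beyond the other sham samples. In bulk samples a lower level of a gene can come from fewer cells of a type or from less RNA per cell, and these cannot be told apart here.

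The strongest difference was that of a gene for a CD59-like protein. CD59 of mammals is a membrane-bound inhibitor of the terminal complement complex. The entry *BX908782.3* had 3283, 740.5, 1194 and 3330.1 CPM in the 3 dpci samples, against 158, 211, 317, 232 and 122 CPM in sham samples. Every injured sample was above every sham sample, with the lowest in replicate 2, and the log2 fold change of 3.36 (SE 0.46) had an adjusted p of 0.00914 by edgeR's quasi-likelihood test. Reads could be shared with *BX908782.2*, an entry of the same name stem, but the sequences were not compared. That entry had 3440.1, 192, 1160.0 and 11611 CPM at 3 dpci, against 54.03, 41.8, 27.1, 18.5 and 46.6 CPM in sham. The groups did not overlap there either, but the injured samples spanned a far wider range, from replicate 2 at the bottom to replicate 4 at the top, and the log2 fold change of 6.77 (SE 1.31) had an adjusted p of 0.0716. Without replicate 4 it was 5.40. How reads with several positions were counted is not given in the sources used here, so the split between both entries is uncertain.

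The genes *mdka*, *serpinb1* and *htra1b* were also higher in every injured sample than in any sham sample. Midkine a (*mdka*), a heparin-binding growth factor, had 37.7, 33.6, 32.3 and 12.8 CPM at 3 dpci, against 3.14, 2.05, 3.498, 6.84 and 6.28 CPM in sham. The lowest injured value was in replicate 4, and the log2 fold change was 2.73 (SE 0.52, unadjusted P = 6.97e-05, adjusted p = 0.0716). The leukocyte elastase inhibitor *serpinb1*, which blocks proteases of neutrophil granules, had 509.6, 202, 188 and 259 CPM at 3 dpci, against 40.8, 50.9, 71.7, 80.5 and 96.9 CPM in sham. Its lowest injured value was nearly 2 times the highest sham value, and the log2 fold change was 2.09 (SE 0.38, unadjusted P = 4.19e-05). The secreted serine protease *htra1b* had 7.54, 5.298, 3.79 and 14.3 CPM at 3 dpci, against 1.29, 2.5002, 1.17, 1.14 and 1.01 CPM in sham, again without overlap (log2 fold change 2.43, unadjusted P = 0.000268). *igfbp1a*, a liver-secreted binding protein of insulin-like growth factors, was called higher (log2 fold change 3.12, SE 0.75) at 1263, 406, 57.8 and 988 CPM at 3 dpci, against 24.3, 141, 49.6, 49.3 and 127 CPM in sham. Injured replicate 3 lay within the sham range for this gene, so the difference did not hold in all 4 samples. Of the 47 genes on the list of Tgf-beta and growth factor signalling, 4 were called higher and 1 lower (beside 1.81% and 1.8% of all genes tested), and the list's median log2 fold change was −0.09, beside −0.01 for all genes. Besides *mdka* and *igfbp1a* the members called higher were *hbegfb* and *igfbp3*. *hbegfb*, a ligand of the EGF receptor, was at 1.26, 3.97, 4.45 and 6.86 CPM at 3 dpci, against 1.29, 0.909, 0, 1.14 and 1.62 CPM in sham (log2 fold change 2.01), where replicate 1 overlapped with sham. *igfbp3*, another binding protein of insulin-like growth factors, was called through replicate 4 alone, since its log2 fold change was 0.71 without that sample and 2.41 with it. The member called lower, *inhbab*, which encodes an activin subunit, had 1.47, 0, 0 and 5.32 CPM at 3 dpci, against 65.7, 10.5, 1.17, 17.1 and 0.405 CPM in sham. The groups overlapped, with sham replicates 3 and 5 among the injured samples (log2 fold change −3.42, SE 1.44). Its call was lost in 4 of the 9 fits without 1 sample, the log2 fold change being −2.03 without sham replicate 1 and −5.40 without 3 dpci replicate 4.

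**Figure D2:**
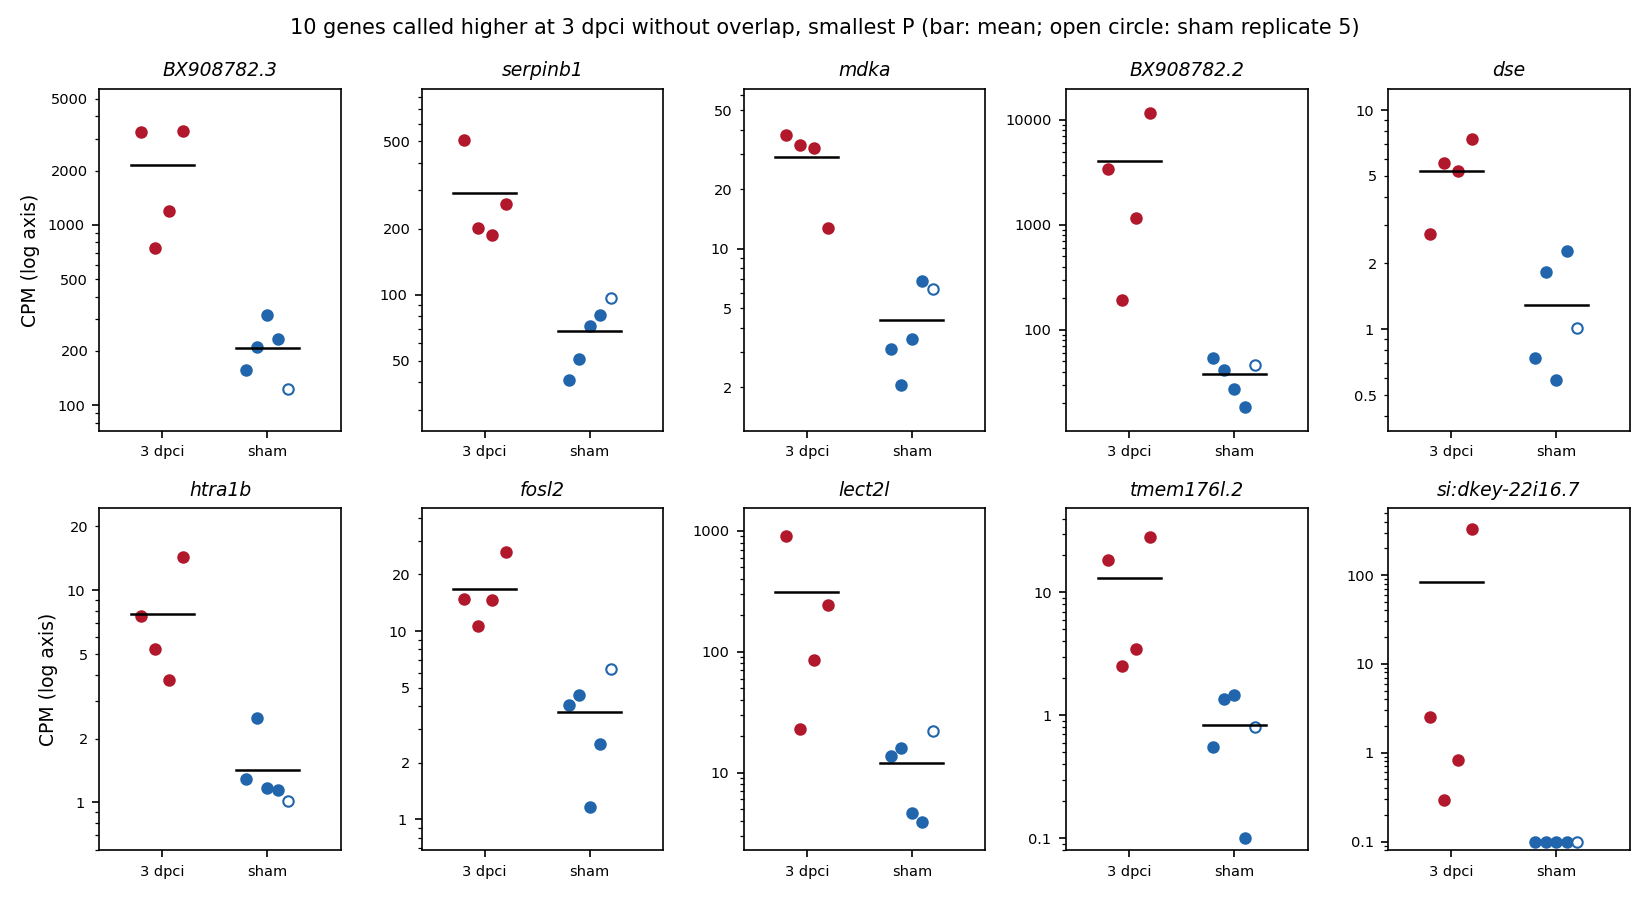
CPM on a log axis of 10 genes that were called higher at 3 dpci with no overlap of the groups, with 1 point per sample, the 4 samples of 3 dpci at the left and the 5 sham samples at the right of each panel, and a bar at each group mean. Values of 0 are drawn at the bottom edge, and in each panel the lowest 3 dpci point lies above the highest sham point.

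Calls among inflammatory signalling genes were upwards only. Of 51 genes of Tnf and NF-kB signalling, 9 were called higher and none lower (beside 1.81% and 1.8% of all genes tested), 8 separated the groups upwards (beside 2.28%), and the median log2 fold change was 0.74, beside −0.01 for all genes. The summed level of the list did not separate the groups, at 1709, 1679, 1552 and 1103 CPM at 3 dpci, against 1281, 1871, 1322, 1481 and 1426 CPM in sham. The AP-1 transcription factor gene *fosl2* had 14.9, 10.6, 14.7 and 26.4 CPM at 3 dpci, against 4.06, 4.55, 1.17, 2.51 and 6.28 CPM in sham. The injured samples lay above the sham samples throughout, with a log2 fold change of 2.14 (SE 0.49, unadjusted P = 0.000444). Its relative *fosl1a* had 2.095, 4.12, 5.44 and 8.28 CPM at 3 dpci, against 1.66, 0.909, 0.291, 0.684 and 2.03 CPM in sham (log2 fold change 2.11), and the immediate early gene *ier2a* had 25.4, 22.5, 34.6 and 39.5 CPM, against 4.79, 3.18, 9.33, 11.6 and 20.7 CPM in sham (log2 fold change 1.62). Both also separated the groups, although by a narrow margin. The neutrophil attractant *cxcl8a* had 5.03, 3.24, 3.95 and 4.496 CPM at 3 dpci, against 1.11, 0, 0, 0.912 and 0 CPM in sham, and the chemokine *ccl34a.4* had 3.77, 3.53, 2.47 and 2.48 CPM, against 0.184, 0, 0, 0.912 and 1.42 CPM. At these levels the sham values are 0 to 7 counts, and the log2 fold changes of 3.23 and 2.50 are imprecise (SE 1.01 and 0.80). They were 4.06 for *cxcl8a* without sham replicate 1 and 3.35 for *ccl34a.4* without sham replicate 5. *bcl3*, a coactivator that binds NF-kB subunits, was separated with 3.14, 1.18, 1.48 and 11.4 CPM at 3 dpci, against 0.553, 1.14, 0, 0.228 and 0.811 CPM in sham, but without replicate 4 its log2 fold change of 2.90 became 1.71 with an unadjusted P of 0.0649. The call of *ier2a* was lost without sham replicate 1, sham replicate 2 or 3 dpci replicate 4, where its log2 fold change was 1.44, 1.39 and 1.47.

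Neutrophil genes had the highest median of the cell type lists. Of 17 neutrophil genes, 6 were called higher and 1 lower (beside 1.81% and 1.8% of all genes tested), with a median log2 fold change of 1.02. In 2 of the 17 all injured samples lay above all sham samples (beside 2.28%). The chemotaxin gene *lect2l*, highly expressed in zebrafish neutrophils, had 905, 23.1, 86.1 and 242 CPM at 3 dpci, against 13.6, 15.9, 4.66, 3.88 and 21.9 CPM in sham. All injured samples were higher than all sham samples, although replicate 2 exceeded the highest sham sample only slightly, and the log2 fold change was 4.70 (SE 1.09, unadjusted P = 0.000454) with and 3.28 without replicate 1, its highest sample. The neutrophil astacin protease nephrosin (*npsn*) had 18.4, 8.24, 59.13 and 47.2 CPM at 3 dpci, against 5.53, 9.09, 2.91, 4.56 and 9.12 CPM in sham (log2 fold change 2.40), and replicate 2 fell inside the sham range. The leukocyte metalloprotease gene *adam8a* separated the groups at 10.9, 12.95, 25.4 and 24.02 CPM at 3 dpci, against 6.45, 8.86, 2.91, 7.75 and 1.82 CPM in sham (log2 fold change 1.71). Its fold change was 1.49 without sham replicate 5, just under the threshold. *noxo1a*, which encodes an organiser subunit of a superoxide-producing NADPH oxidase and is on no marker list, had 5.87, 10.6, 11.9 and 14.2 CPM at 3 dpci, against 4.61, 2.5002, 0.874, 0.912 and 2.84 CPM in sham, without overlap (log2 fold change 2.14). The collagenase *mmp13a* and the gelatinase *mmp9* were called through the highest sample, replicate 4. *mmp13a* had a log2 fold change of 2.06 with and 1.09 without that sample, and *mmp9* 2.02 with and 0.97 without it. The remaining gene called higher, *scpp8*, was also highest in replicate 4. It had 1, 10, 6 and 147 counts at 3 dpci, against 4, 3, 0, 2 and 3 counts in sham. The gene called lower on the list, *cpa5*, encodes a carboxypeptidase, and its sham values of 546, 1998, 990.5, 2293 and 425 CPM were highest in sham replicates 2 and 4 and lowest in sham replicate 5, as for the pancreatic enzymes described further on, with 483, 163, 296 and 219.8 CPM at 3 dpci. Its call (log2 fold change −2.11) was lost in 5 of the 9 fits without 1 sample, and without *cpa5* no neutrophil gene was called lower. The summed level of the neutrophil list, to which *cpa5* contributes most in sham, was 1582, 438, 656 and 815 CPM at 3 dpci, against 769, 2254, 1089, 2507 and 641 CPM in sham, so the groups overlapped and the mean was lower at 3 dpci.

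Calls among macrophage genes were upwards only. Of 25 genes, 5 were called higher and none lower (beside 1.81% and 1.8% of all genes tested), 21 had a positive log2 fold change (beside 49.0%) and the median was 0.82. The 5 include *ccl34a.4*, which is described above with the inflammatory signalling genes. The summed level of the list overlapped between the groups, at 34212, 31546, 26192 and 11779.6 CPM at 3 dpci, against 20925, 20493, 33234, 31834 and 34734 CPM in sham. Most of that sum was the apolipoprotein gene *apoc1*, named here after its values were seen, which averaged 21039 ± 8797 CPM at 3 dpci and 26299.5 ± 6663 CPM in sham (SD, n = 4 and n = 5) and was not called. *MFAP4 (1 of many)*, a microfibril-associated glycoprotein gene of the family that marks zebrafish macrophages, had 20.95, 21.2, 34.9 and 6.86 CPM at 3 dpci, against 1.48, 4.32, 2.33, 1.596 and 6.08 CPM in sham, and *mfap4* had 7.54, 12.8, 18.9 and 8.52 CPM, against 7.19, 1.82, 2.04, 1.596 and 3.04 CPM. Neither gene overlapped between the groups, and their log2 fold changes were 2.72 (SE 0.68) and 1.90 (SE 0.62). Reads may be shared among the copies of this family. The g-type lysozyme gene *lygl1* also separated the groups, with 107, 88.2, 173 and 302 CPM at 3 dpci, against 79.1, 26.6, 35.9, 64.8 and 28.6 CPM in sham. Its call was weak (log2 fold change 1.83, unadjusted P = 0.0484) and was lost in fits without 1 of 6 single samples, the lowest log2 fold change being 1.38 without 3 dpci replicate 4. The membrane protein gene *tmem176l.2*, on no list, separated the groups at 18.4, 2.502, 3.46 and 28.5 CPM at 3 dpci, against 0.553, 1.36, 1.46, 0 and 0.811 CPM in sham (log2 fold change 3.99, SE 0.92, or 3.27 without replicate 4). Of 13 pan-leukocyte genes 1 was called higher (beside 1.81% of all genes tested), *arpc1b*, which is described below with the cytoskeleton genes. Every one of the 13 had a positive log2 fold change, with a median of 0.60. The profilin gene *pfn1*, an actin-binding protein on that list, had 117, 136, 159 and 99.3 CPM at 3 dpci, against 75.1, 68.2, 45.8, 64.3 and 51.5 CPM in sham, which separated the groups at a log2 fold change of 1.07, under the threshold for a call. Summed over the leukocyte list the level ranged from 3315 to 4091 CPM at 3 dpci and from 2452 to 3977 CPM in sham, and the share of these genes' difference that comes from cell number was not tested.

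Matrix and stromal genes showed a few calls with wide spread. Of 47 extracellular matrix genes, 5 were called higher and 2 lower (beside 1.81% and 1.8% of all genes tested), 36 had a positive log2 fold change and the median was 0.61. The fibrillar collagen gene *col1a1b* had 67.1, 42.2, 33.6 and 14.7 CPM at 3 dpci, against 10.5, 10.9, 8.16, 19.6 and 15.4 CPM in sham, and periostin b (*postnb*), a matrix protein of activated fibroblasts, had 38.56, 43.4, 46.6 and 5.92 CPM, against 5.901, 9.32, 7.29, 12.54 and 13.8 CPM. In both genes 3 injured samples lay above all sham samples and replicate 4 lay within the sham range, and the log2 fold changes were 1.60 (SE 0.43) and 1.78 (SE 0.57). The call of *col1a1b* was lost without 3 dpci replicate 1 (log2 fold change 1.22) and without sham replicate 3 (1.48). Cathepsin K (*ctsk*), a protease that degrades collagen, had 16.3, 29.6, 3.95 and 13.96 CPM at 3 dpci, against 1.11, 3.41, 2.33, 2.96 and 5.68 CPM in sham, where replicate 3 overlapped (log2 fold change 2.36, unadjusted P = 0.00279). *dse*, whose enzyme epimerises the sugar chains of dermatan sulfate proteoglycans, did hold in every sample, at 2.72, 5.74, 5.27 and 7.34 CPM at 3 dpci, against 0.738, 1.82, 0.583, 2.28 and 1.01 CPM in sham (log2 fold change 2.02, SE 0.43). The matrix genes called lower were *timp2a*, a metalloprotease inhibitor, and *tgfbi*, an integrin-binding matrix protein. *tgfbi* had 34.4, 18.99, 6.59 and 8.52 CPM at 3 dpci, against 133, 187, 257, 30.3 and 12.97 CPM in sham, and *timp2a* had 1.05, 2.65, 0.659 and 0.947 CPM, against 9.04, 21.8, 0.583, 14.1 and 4.66 CPM. Sham samples reached down into the injured range in both, sham replicates 4 and 5 for *tgfbi* and sham replicate 3 for *timp2a*, and the log2 fold changes were −2.86 and −2.90. Of 22 stellate cell and fibroblast genes, 3 were called higher and 1 lower (beside 1.81% and 1.8% of all genes tested), with a median of 0.63. This list shares *col1a1b*, *postnb* and *timp2a* with the matrix list, so these calls are counted in both. *ifitm1*, an interferon-induced membrane protein gene on that list, had 23.1, 4.27, 5.93 and 50.996 CPM at 3 dpci, against 1.11, 1.82, 1.46, 4.33 and 2.84 CPM in sham, so that replicate 2 fell just below the highest sham sample (log2 fold change 3.18, or 2.24 without replicate 4).

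The genes of the cytoskeleton and of epithelia separated the groups upwards more often than they were called higher. This also held over all genes tested, of which 2.28% lay higher in every injured sample and 1.81% were called higher. Of 62 actin and tubulin genes, 10 lay higher in every injured sample than in any sham sample and 3 were called higher, with a median log2 fold change of 0.45. The actin-binding protein gene *tagln2* had 22.6, 19.9, 18.1 and 76.6 CPM at 3 dpci, against 8.299, 5.68, 6.704, 0 and 9.53 CPM in sham. It was separated and called (log2 fold change 2.50, SE 0.77), with replicate 4 above 3 times the next injured sample, and without it the log2 fold change was 1.73. *arpc1b*, a subunit of the actin-nucleating Arp2/3 complex, had 14.2, 19.1, 25.5 and 8.64 CPM at 3 dpci, against 4.98, 4.32, 3.21, 9.35 and 3.85 CPM in sham (log2 fold change 1.71). Its lowest injured sample, replicate 4, fell below the highest sham sample, and the call was lost without replicate 3 (log2 fold change 1.44). All 14 biliary epithelium genes had a positive log2 fold change, 4 of them separated the groups upwards and the median was 0.79, but 1 was called. That gene, the galectin *lgals2b*, had 604, 469, 269 and 595 CPM at 3 dpci, against 185, 263, 104, 136 and 119 CPM in sham, just above the highest sham sample at its lowest point (log2 fold change 1.58, SE 0.48), and without sham replicate 3, sham replicate 5, 3 dpci replicate 1 or 3 dpci replicate 4 its log2 fold change was 1.46 to 1.49, below the threshold. Annexin A4 (*anxa4*), the protein commonly used to stain zebrafish bile ducts, had 313, 354, 215 and 254 CPM at 3 dpci, against 137, 107, 95.9, 144 and 142 CPM in sham, which separated the groups at a log2 fold change of 1.18 (SE 0.44, unadjusted P = 0.0146). The summed level of the biliary list was 1831, 1603, 979 and 1525 CPM at 3 dpci, against 723, 918, 539.5, 679 and 761 CPM in sham, so the groups did not overlap. Of the 14 annexin and S100 genes, which include *anxa4*, 13 had a positive log2 fold change and the median was 0.72.

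Acute phase genes differed widely among the injured samples. Of 40 genes, 4 were called higher and none lower (beside 1.81% and 1.8% of all genes tested), and the median log2 fold change was 0.48. Haptoglobin (*hp*), which binds free haemoglobin, had 259.6, 674, 725 and 487 CPM at 3 dpci, against 241, 15.7, 17.2, 70.003 and 17.2 CPM in sham. The groups were barely separate, replicate 1 lying next to the highest sham sample, sham replicate 1, and the log2 fold change of 2.89 (SE 1.24) had an unadjusted P of 0.032, which exceeded 0.05 in 6 of the 9 fits without 1 sample, with 0.0658 without sham replicate 5 as the highest. Without sham replicate 1 the log2 fold change was 4.17. The C-reactive protein gene *crp2* had 5984, 3837, 4430.5 and 11.95 CPM at 3 dpci, against 1018, 35.003, 1336, 20.98 and 239.6 CPM in sham, with replicate 4 below every sham sample, and its call (log2 fold change 2.75, 3.44 without sham replicate 3) was lost in 6 of the 9 fits without 1 sample. The iron hormone gene hepcidin (*hamp*) had 18.02, 3.83, 15.98 and 188 CPM at 3 dpci, against 8.48, 1.36, 2.04, 5.47 and 3.45 CPM in sham, and serum amyloid A (*saa*) had 9.64, 2.65, 2.47 and 42.5 CPM, against 2.58, 0.682, 0, 5.02 and 0.608 CPM. Both were led by replicate 4, the sample that was lowest for *crp2*, and without it neither was called, the log2 fold changes being 1.57 for *hamp* (3.74 with it) and 1.41 for *saa* (2.98 with it). The call of *saa* was also lost without sham replicate 2, 3 or 5, and its log2 fold change was 3.77 without sham replicate 4. The complement and coagulation proteins shifted upwards as a list without a gene called higher. Of 47 genes, 38 had a positive log2 fold change (beside 49.0% of all genes tested), the median was 0.44 and 1 was called lower, near the share of 1.8% over all genes. Complement component 9 (*c9*), which forms the terminal pore that CD59 restrains, separated the groups at 12217, 5783, 5433 and 5347 CPM at 3 dpci, against 2349, 2269.5, 1643, 2948 and 3999 CPM in sham, with a log2 fold change of 1.45 (SE 0.49) just under the threshold. The fibrinogen alpha chain (*fga*) had 6547, 4525, 3990.1 and 6589 CPM at 3 dpci, against 2292, 2912, 2891, 2383 and 5312 CPM in sham, where sham replicate 5 alone reached the injured range (log2 fold change 0.78).

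Proliferation genes had few calls, but over all genes tested 1.81% were called higher and 1.8% lower. In lists of this size the few calls are near that share. Of 28 mitosis genes, none was called in either direction, although 22 had a positive log2 fold change and the median was 0.59. In the list of cell cycle control 1 of 17 genes was called higher, and the median was −0.02. Among 44 DNA replication genes 1 was called higher, *gmnn*, an inhibitor of replication licensing, and the median was 0.11. *gmnn* had 4.61, 26.8, 8.56 and 2.25 CPM at 3 dpci, against 1.66, 0, 0.291, 0 and 9.33 CPM in sham, led by replicate 2 among the injured and by replicate 5 among the sham samples. Its log2 fold change of 2.18 was 1.14 without 3 dpci replicate 2 and 4.25 without sham replicate 5, and the call was lost in 6 of the 9 fits without 1 sample. The replication clamp gene *pcna* had 24.3, 55.5, 64.9 and 36.3 CPM at 3 dpci, against 54.03, 16.8, 85.99, 41.7 and 10.9 CPM in sham, and the groups overlapped almost entirely (log2 fold change 0.11, SE 0.65). The proliferation marker *mki67*, chosen after its values were seen, had 4.61, 11.3, 19.1 and 15.97 CPM at 3 dpci, against 4.79, 5.91, 9.62, 6.38 and 3.65 CPM in sham, a log2 fold change of 1.08 (SE 0.58, unadjusted P = 0.0783). The summed level of the mitosis list was 173, 250.5, 297 and 260.3 CPM at 3 dpci, against 181, 166, 234, 217 and 154 CPM in sham, so that replicates 2, 3 and 4 exceeded every sham sample and replicate 1 lay among them. *ccnd1*, the cyclin of entry into the cycle, had 19.3, 47.5, 43.98 and 29.5 CPM at 3 dpci, against 33.2, 29.5, 20.1, 27.1 and 29.6 CPM in sham (log2 fold change 0.33).

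**Figure D3:**
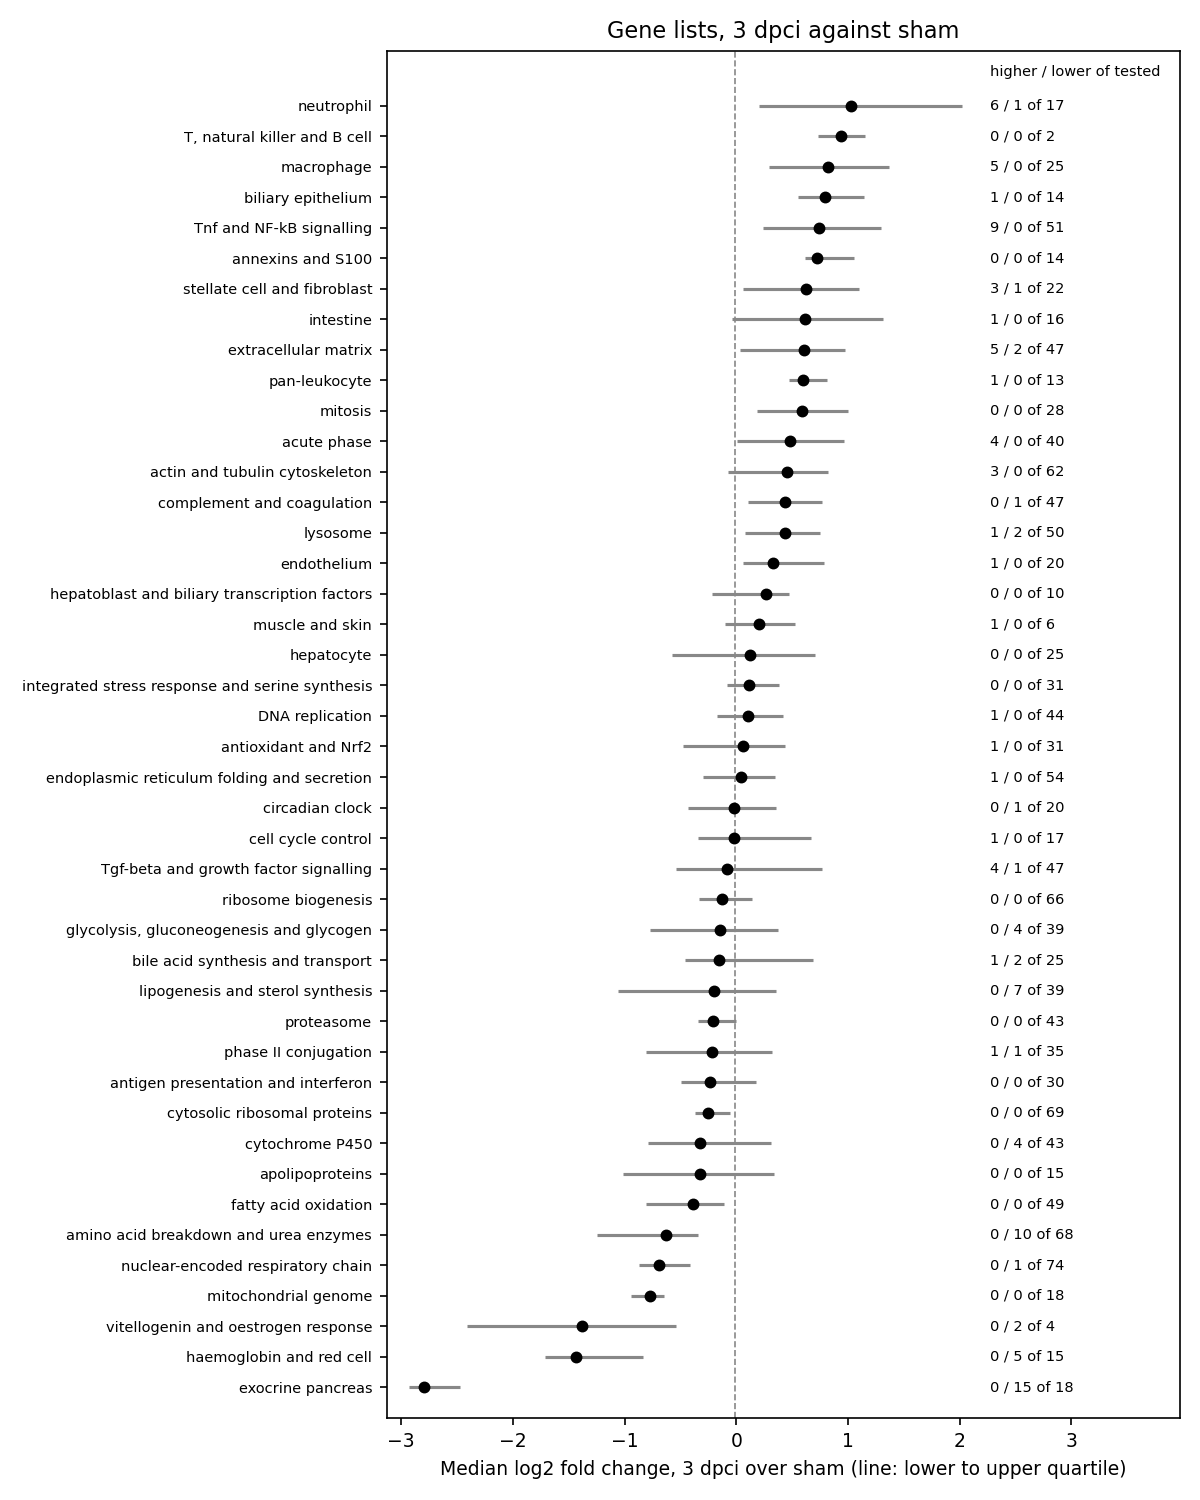
Median log2 fold change at 3 dpci over sham of the 43 gene lists with a tested gene (points, with a line from the lower to the upper quartile of the members), ordered from the highest to the lowest, with the number of members called higher and called lower printed at the right. The vertical line marks the median of all genes tested, −0.01. The neutrophil list lies at the top with 1.02 and the exocrine pancreas list at the bottom with −2.80.

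Enzymes of amino acid metabolism were among the separated lower genes. Of 68 genes of amino acid breakdown and the urea cycle, 10 were called lower and none higher (beside 1.8% and 1.81% of all genes tested), 7 lay below sham in every injured sample (beside 1.88%), 7 had a positive log2 fold change (beside 49.0%) and the median was −0.63. Adenosylhomocysteinase (*ahcy*), which clears the product of cellular methylation reactions, had 908, 587, 533 and 441 CPM at 3 dpci, against 2095, 3063, 2361, 2890.4 and 1152 CPM in sham. All injured samples were below all sham samples, sham replicate 5 being the lowest of sham, and the log2 fold change was −1.91 (SE 0.34, unadjusted P = 3.1e-05, adjusted p = 0.0504 by edgeR and 1.1e-05 by DESeq2). Glycine N-methyltransferase (*gnmt*), which transfers a methyl group to glycine, had 41.9, 31.6, 18.8 and 20.5 CPM at 3 dpci, against 134, 131, 109, 124 and 59.4 CPM in sham, likewise without overlap (log2 fold change −1.98, SE 0.45). The cytosolic aspartate transaminase *got1* had 77.5, 87.9, 69.999 and 68.9 CPM at 3 dpci, against 227, 509, 790.2, 236 and 163 CPM in sham. Its injured values were the most even of this group, and the log2 fold change was −2.34 (SE 0.55). The histidine-degrading lyase *hal* had 56.6, 34.4, 20.1 and 8.87 CPM at 3 dpci, against 72.8, 128, 154, 72.1 and 79.1 CPM in sham (log2 fold change −1.76), and cysteine dioxygenase (*cdo1*), which opens the route to taurine, had 346, 302, 68.7 and 93.1 CPM, against 1675, 501, 643, 369 and 626 CPM (log2 fold change −1.92). Both held in every sample, yet their fold changes fell under the threshold without 1 sample, at −1.45 for *hal* without 3 dpci replicate 4 and −1.41 for *cdo1* without sham replicate 1. *tdh* and *gcat*, which degrade threonine in 2 successive steps, were called lower with log2 fold changes of −2.42 and −1.53, and both overlapped with sham. For *tdh* the 50.9, 7.801, 8.07 and 14.7 CPM at 3 dpci stood against 159, 211, 104, 61.8 and 5.07 CPM in sham, where sham replicate 5 lay below the lowest injured sample. The call of *gcat* was lost in 4 of the 9 fits without 1 sample, those without sham replicate 2, sham replicate 3, 3 dpci replicate 2 or 3 dpci replicate 4, with a log2 fold change of −1.32 in the last. Without 3 dpci replicate 1 the log2 fold change of *tdh* was −3.41.

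Some of the largest fitted differences overlapped between the groups. Guanidinoacetate N-methyltransferase (*gamt*), the last enzyme of creatine synthesis, had 0, 0, 0 and 0.237 CPM at 3 dpci, against 0.184, 67.96, 0.291, 141 and 142 CPM in sham. Sham replicates 1 and 3 were as low as the injured samples, whereas the other 3 sham samples were at 67.96 CPM or more. The mean was 15.7 CPM at 1 dpci and 61.6 CPM at 7 dpci, where replicate 1 had 0.458 CPM and the others 40.9 CPM or more. *ndufs7*, a core subunit of respiratory complex I, had no count in any 3 dpci sample and 0, 12.96, 0.583, 20.1 and 15.6 CPM in sham, at least 20.5-fold lower at 3 dpci against a floor of 3 counts per library, and here sham replicates 1 and 3 were again at or near 0. The mean of *ndufs7* was 17.2 CPM at 1 dpci and 8.33 CPM at 7 dpci. Its 7 dpci samples had 0, 22.5, 6.20 and 4.63 CPM, with replicate 1 again the lowest. Against 1 dpci, *ndufs7* and *gamt* were lower at 3 dpci with adjusted p of 0.0129 and 0.0305 by edgeR. Against 7 dpci neither passed, with adjusted p of 0.398 and 0.394 by edgeR. *thrsp*, a thyroid hormone responsive gene of lipid synthesis, had 2.31, 0.883, 0.988 and 0.592 CPM at 3 dpci, against 751, 274, 3048, 191 and 1.01 CPM in sham, and sham replicate 5 was inside the injured range. At 1 dpci its mean was 0.907 CPM. These 3 genes were called in each of the 9 fits without 1 sample, but their sham samples fell into high and low values that their labels do not explain, and the fitted fold changes are imprecise, with an SE of 2.11 for *gamt*, 2.19 for *ndufs7* and 2.01 for *thrsp* on the log2 scale. In the opposite direction *si:dkey-22i16.7*, an entry with no annotated function here, had no count in sham and 2.51, 0.294, 0.824 and 332 CPM at 3 dpci. The 3 dpci mean was at least 123-fold higher against a floor of 3 counts per sham library, but without replicate 4 it was at least 1.78-fold higher, so the level rested on 1 injured sample.

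**Figure D4:**
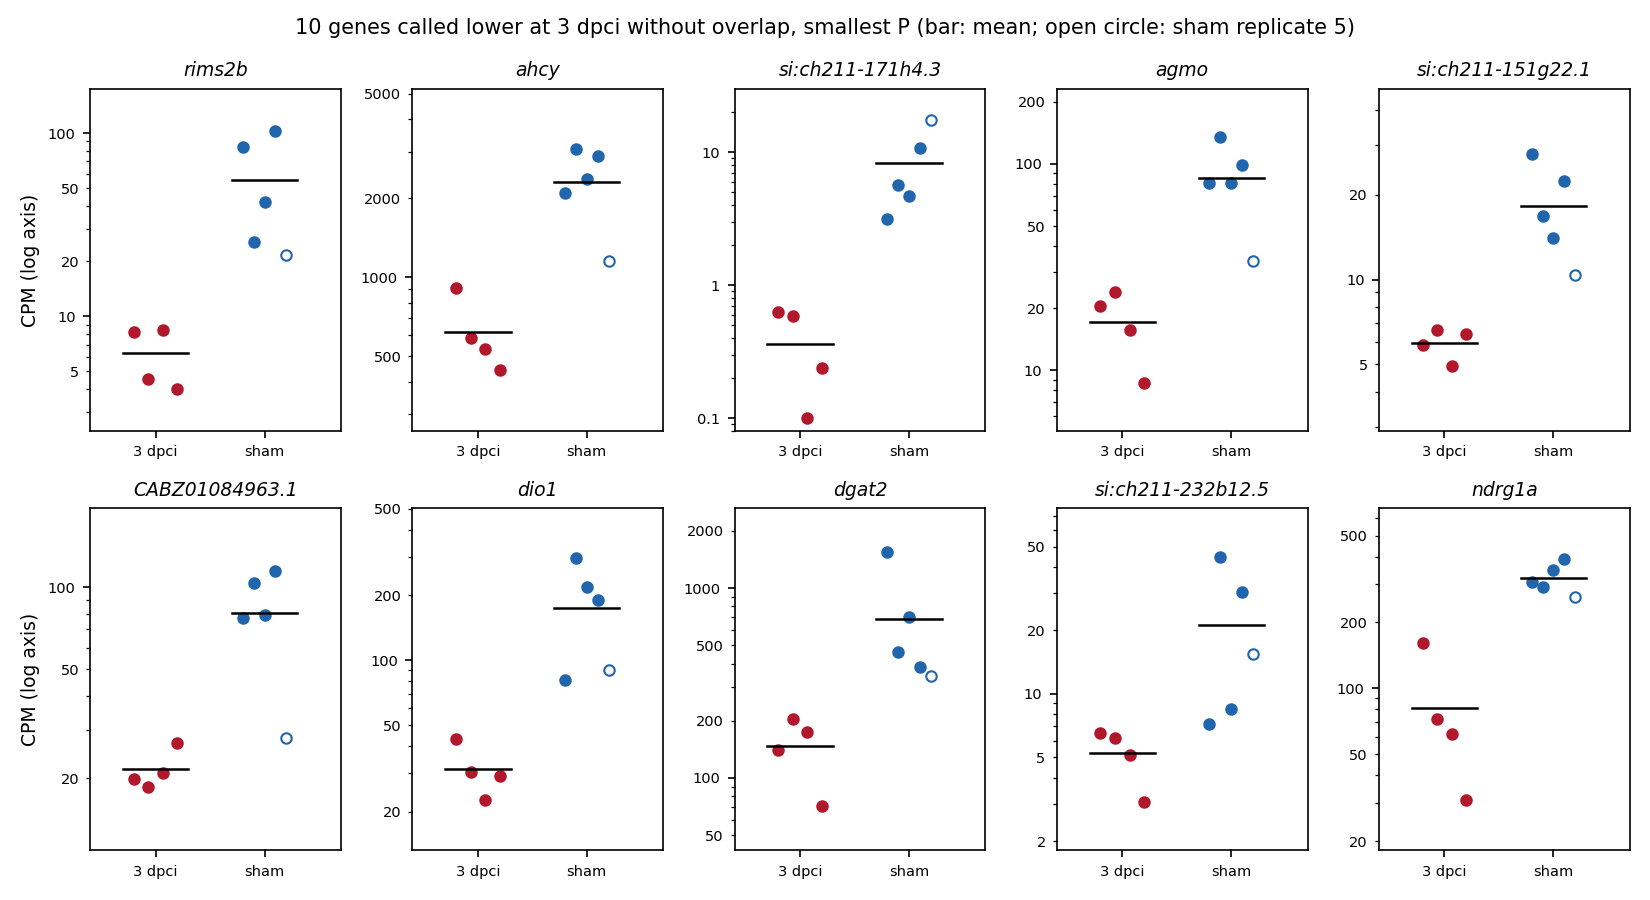
CPM on a log axis of 10 genes that were called lower at 3 dpci with no overlap of the groups, with 1 point per sample, the 4 samples of 3 dpci at the left and the 5 sham samples at the right of each panel, and a bar at each group mean. In each panel the highest 3 dpci point lies below the lowest sham point, and sham replicate 5 (open circle) is the lowest sham point in 7 of the 10 panels.

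Enzymes of lipid and hormone processing were also among the separated lower genes. The deiodinase *dio1*, which makes active thyroid hormone in liver, had 43.4, 30.6, 22.6 and 29.3 CPM at 3 dpci, against 80.96, 296, 217, 189.7 and 90.2 CPM in sham. The groups did not overlap, and the log2 fold change was −2.47 (SE 0.51, unadjusted P = 0.000152). *dgat2*, the enzyme of the last step of triglyceride synthesis, had 139.98, 205, 175 and 70.8 CPM at 3 dpci, against 1549, 461, 706, 383 and 344 CPM in sham (log2 fold change −2.22, SE 0.46), and *agmo*, which cleaves ether lipids, had 20.5, 23.8, 15.6 and 8.64 CPM, against 80.8, 136, 80.7, 98.3 and 33.7 CPM (log2 fold change −2.32, SE 0.42). Both held in every sample, with sham replicate 5 the lowest of sham for each. Of 39 genes of lipogenesis and sterol synthesis, 7 were called lower and none higher (beside 1.8% and 1.81% of all genes tested), and the median was −0.20, so that the calls lay in a few genes. The stearoyl-CoA desaturase *scd* had 1.05, 0.589, 16.1 and 1.06 CPM at 3 dpci, against 593, 10.9, 354, 28.96 and 0.608 CPM in sham, and the fatty acid desaturase *fads2* had 66.6, 433, 442 and 84.95 CPM, against 699, 711, 1858, 799 and 113 CPM. Sham replicate 5 lay within the injured range for both genes. The log2 fold change of *scd* (−5.39) was −4.40 without sham replicate 1 and −7.75 without 3 dpci replicate 3, and the call of *fads2* (log2 fold change −1.70) was lost in 6 of the 9 fits without 1 sample, with −1.17 without sham replicate 3. The folate carrier of mitochondria *slc25a32a* had 20.7, 33.6, 32.1 and 4.26 CPM at 3 dpci, against 83.5, 159, 89.5, 134 and 76.02 CPM in sham, separated with a log2 fold change of −2.26 (SE 0.54). *ndrg1a*, a gene named for its regulation by N-myc, had 161, 72.1, 62.1 and 30.9 CPM at 3 dpci, against 307, 290.5, 349, 392 and 262 CPM in sham, with the injured values spread and the sham values even (log2 fold change −1.98).

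Carbohydrate and drug metabolism had fewer calls. Of 39 glycolysis, gluconeogenesis and glycogen genes, 4 were called lower and none higher (beside 1.8% and 1.81% of all genes tested), with a median of −0.15. The liver pyruvate kinase *pklr* had 1040.4, 223, 377 and 290 CPM at 3 dpci, against 2780.4, 5204, 6521, 1925 and 654 CPM in sham. Sham replicate 5 lay below the highest injured sample, replicate 1, and the log2 fold change was −2.82 (SE 0.60), or −3.52 without replicate 1. Glucokinase (*gck*), which starts glucose use in hepatocytes, was called lower through sham replicate 1, which had 1153 CPM, and its log2 fold change of −6.31 became −1.96 without that sample, with an unadjusted P of 0.0505. A fumarate hydratase-like entry of the citric acid cycle, *CABZ01084963.1*, had 19.9, 18.5, 20.9 and 26.9 CPM at 3 dpci, against 76.9, 103, 79.3, 114 and 27.98 CPM in sham, separated although sham replicate 5 nearly touched injured replicate 4 (log2 fold change −1.90, SE 0.39). Of 43 cytochrome P450 genes, 4 were called lower and none higher (beside 1.8% and 1.81% of all genes tested), with a median of −0.32. *cyp2k22* and *cyp2p7*, members of the family of xenobiotic oxidases, held in every sample. *cyp2k22* had 79.8, 204, 154 and 7.22 CPM at 3 dpci, against 468, 355, 323, 495 and 351 CPM in sham, and *cyp2p7* had 9.64, 2.21, 2.7999 and 13.6 CPM, against 14.6, 38.2, 24.5, 18.01 and 14.8 CPM. The fold change of *cyp2k22* (−1.84) was −1.45 without 3 dpci replicate 4, and that of *cyp2p7* (−1.63) was −1.34 to −1.37 without sham replicate 2, 3 dpci replicate 2 or 3 dpci replicate 3. The gap between the groups was wide for *rims2b*, a gene known for its role at nerve terminals, with 8.17, 4.56, 8.3998 and 4.02 CPM at 3 dpci, against 84.3, 25.5, 41.97, 102 and 21.7 CPM in sham (log2 fold change −3.14, SE 0.54). Entries without an annotated function were among the strongest lower genes as well. *si:ch211-171h4.3* had 0.629, 0.589, 0 and 0.237 CPM at 3 dpci, against 3.14, 5.68, 4.66, 10.7 and 17.6 CPM in sham, where sham replicate 5 was the highest sample (log2 fold change −4.50, SE 0.80, adjusted p = 0.0504 by edgeR). *si:ch211-151g22.1* had 5.87, 6.62, 4.94 and 6.39 CPM at 3 dpci, against 27.8, 16.8, 13.99, 22.3 and 10.3 CPM in sham (log2 fold change −1.61, or −1.41 without sham replicate 1), and *si:ch211-232b12.5* had 6.496, 6.18, 5.11 and 3.08 CPM, against 7.19, 44.8, 8.45, 30.6 and 15.4 CPM (log2 fold change −2.03).

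Respiratory chain genes lay mostly below 0 as a list, with 1 call. Of 74 nuclear-encoded respiratory chain genes, 8 had a positive log2 fold change, 8 lay below sham in every injured sample (beside 1.88% of all genes tested), 43 were lower at an unadjusted P of at most 0.05 (beside 6.13%) and the median was −0.69, beside −0.01 for all genes. The ATP synthase subunit *atp5f1b* had 454, 586, 665 and 523 CPM at 3 dpci, against 1265, 1101, 1837, 977 and 802 CPM in sham, separated at a log2 fold change of −1.10 (SE 0.31). *ndufa4l*, a subunit of the terminal part of the chain, had 398, 452, 419 and 229.5 CPM at 3 dpci, against 903, 1047, 1236, 765 and 270.2 CPM in sham, where sham replicate 5 lay among the injured samples (log2 fold change −1.17). The 18 entries of the mitochondrial genome had a median of −0.77 and none was called. The cytochrome c oxidase entry *mt-co2* had 12559, 6793, 5736 and 3935 CPM at 3 dpci, against 9253, 15542, 17770.2, 11142 and 7587 CPM in sham, where replicate 1 reached into the sham range (log2 fold change −0.76). Of 49 fatty acid oxidation genes none was called, 3 lay below sham in every injured sample (beside 1.88%) and the median was −0.39. Cytosolic ribosomal proteins, 69 genes with no call, had a median of −0.25, and 43 proteasome genes had −0.21. Over all genes tested 3.6% were called, and having none called is near that share in lists of this size.

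Hepatocyte identity genes did not move in 1 direction. None of 25 was called, which is near the share of 3.6% over all genes tested for a list of this size. Of the list, 13 had a positive log2 fold change and the median was 0.12. The transgene's promoter gene *fabp10a*, a fatty acid carrier of hepatocytes, had 8742, 12526, 11658 and 1393 CPM at 3 dpci, against 16706, 23501, 21126, 22136 and 11382 CPM in sham, with a log2 fold change of −1.14 (SE 0.47) under the threshold and replicate 4 as the lowest sample. Transferrin (*tfa*) had 44746, 41621, 55744 and 26695 CPM at 3 dpci, against 27596, 33995, 38006, 38329 and 21374 CPM in sham, a log2 fold change of 0.41. The apolipoprotein gene *apoa2* had 102488, 44834, 52462 and 34628 CPM at 3 dpci, against 62231, 75349.7, 97672, 61716 and 32365 CPM in sham (log2 fold change −0.17), and *apobb.1*, the core protein of secreted lipoproteins, had 2835, 2163, 2018 and 1343 CPM, against 2935, 6309, 5367, 4089 and 3173 CPM. Only *apobb.1* among these 4 separated the groups, at a log2 fold change of −1.07 (SE 0.30). Hepatocyte transcripts were thus abundant in every sample, as the label of the tissue has it. Of 4 vitellogenin and oestrogen response genes, 2 were called lower (beside 1.8% of all genes tested). They were the yolk protein genes *vtg3* and *vtg4*, which livers of egg-laying females express, both at low levels and with overlap. *vtg3* had 0, 3.24, 0.494 and 0.237 CPM at 3 dpci, against 0, 0, 1.75, 0.228 and 44.4 CPM in sham, where sham replicate 5 held nearly all of the counts, and its log2 fold change of −3.18 was 1.17 without that sample and −5.08 without 3 dpci replicate 2. *vtg4* had 0.419, 0.883, 0.494 and 0.118 CPM at 3 dpci, against 0.369, 0.909, 4.66, 0 and 5.07 CPM in sham (log2 fold change −2.15, or −1.53 without sham replicate 5). Each call was lost in 4 of the 9 fits without 1 sample.

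The most one-sided list was that of exocrine pancreas enzymes, an organ that lies against the fish liver. Of 18 genes, 15 were called lower at 3 dpci (beside 1.8% of all genes tested), none had a positive log2 fold change (beside 49.0%) and the median was −2.80. Summed over the list, the level was 6976, 1882, 2509.6 and 1559 CPM at 3 dpci, against 9259, 36759, 20618, 32820.4 and 4503 CPM in sham. Sham replicates 1 to 4 were higher than every injured sample, while sham replicate 5 lay below injured replicate 1. Trypsin (*prss1*), a digestive protease of pancreatic acinar cells, had 1436, 472, 759 and 626 CPM at 3 dpci, against 2840.0, 9839, 6734, 7971 and 1121 CPM in sham (log2 fold change −2.79, SE 0.85). Carboxyl ester lipase (*cel.1*), a pancreatic lipase, had 239, 27.1, 30.5 and 17.04 CPM at 3 dpci, against 379.7, 1611, 678, 1326 and 177 CPM in sham (log2 fold change −3.41, or −5.07 without 3 dpci replicate 1). A single gene of the list held in every sample, *zgc:92137*, at 5.66, 8.68, 11.2 and 4.02 CPM at 3 dpci, against 16.04, 63.9, 41.97, 141 and 19.1 CPM in sham, and its call was lost without sham replicate 4 (log2 fold change −2.25, with an unadjusted P above 0.05). These 15 genes are 15 of the 151 called lower and 1 of the 43 that held. With the summed pancreas level as a covariate, an alternative chosen after seeing the data, 164 of the 303 called genes and 68 of the 104 separated ones were called again, and since that level differs between the groups, its part in the other differences was not tested beyond this.

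**Figure D5:**
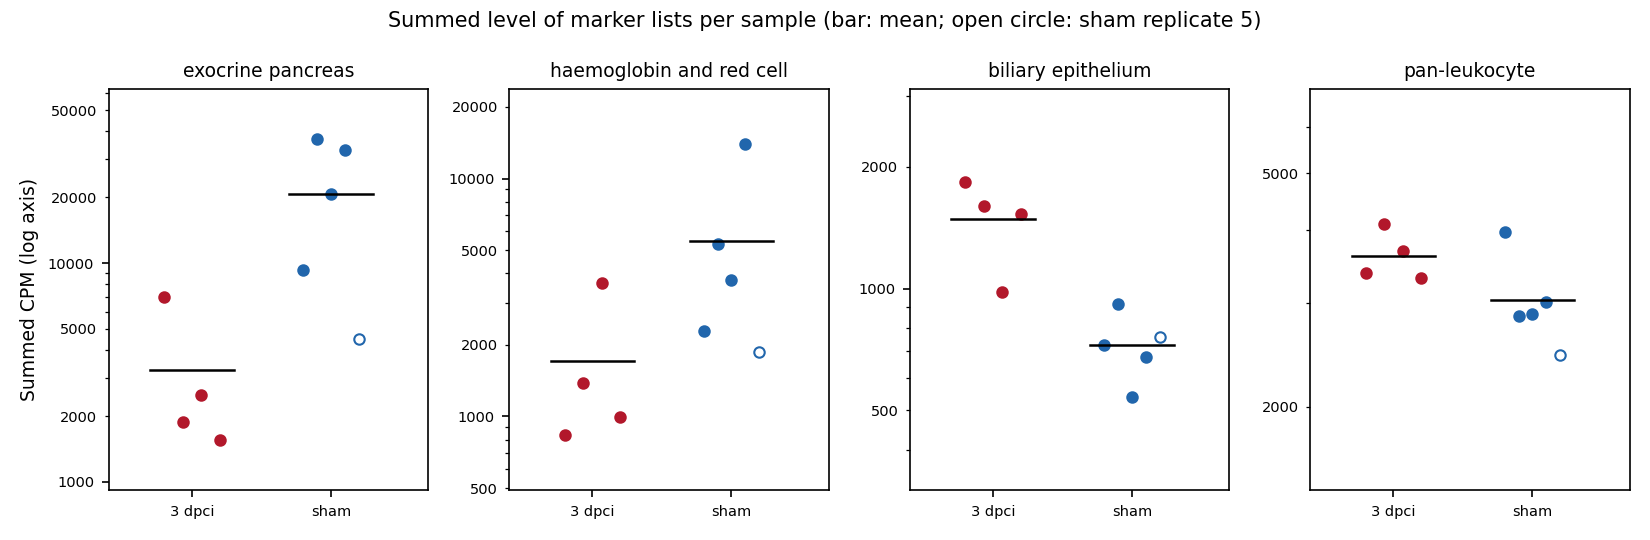
Summed CPM on a log axis of 4 marker lists (exocrine pancreas, haemoglobin and red cell, biliary epithelium, pan-leukocyte) in each sample, with the 4 samples of 3 dpci at the left and the 5 sham samples at the right of each panel, bars at the group means and sham replicate 5 as an open circle. The pancreas sum spans 1559 to 6976 CPM at 3 dpci and 4503 to 36759 CPM in sham, and only the biliary panel has no overlap of the groups.

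Calls among red cell genes were downwards only, and none held in every sample. Of 15 genes, 5 were called lower and none higher (beside 1.8% and 1.81% of all genes tested), 1 had a positive log2 fold change and the median was −1.43. Adult beta globin (*hbba1*) had 706, 1215, 2629 and 759 CPM at 3 dpci, against 1839, 3851, 3129, 10678 and 1533 CPM in sham (log2 fold change −1.66, SE 0.63). Injured replicate 3 lay among the sham samples and sham replicate 4 far above all others, without which the log2 fold change was −0.96. The call was also lost without 3 dpci replicate 1 or 3 dpci replicate 4. The summed list ranged from 833 to 3641 CPM at 3 dpci and from 1874 to 13993 CPM in sham. Markers of other organs were led by single injured samples. The chitinase *chia.1*, on the intestine list, had 1192, 17.96, 1.65 and 0.118 CPM at 3 dpci, against 11.99, 14.3, 4.08, 2.74 and 0.203 CPM in sham, and the epidermal keratin *krt4* had 164, 0, 0.165 and 0 CPM, against 0, 0, 0, 0 and 7.095 CPM. Replicate 1 carried both. *chia.1* had a log2 fold change of 5.50 with and −0.03 without that sample, and *krt4* 4.77 with and −4.42 without it. Without sham replicate 5, the one sham sample with counts, that of *krt4* was 10.96.

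Set directly against the neighbouring time points, more genes differed between 3 and 1 dpci than between 3 and 7 dpci. Between 3 dpci and 1 dpci, 973 genes (11.6%) passed an adjusted p of 0.05 in edgeR's quasi-likelihood test, 644 higher and 329 lower at 3 dpci. That split depended on the scaling, with 264 higher and 540 lower by column totals and 291 higher and 774 lower by column totals without the mitochondrial entries, where the median log2 difference of all genes was −0.40 and −0.42 instead of 0.04. The number also depended on single samples, at 444 without 1 dpci replicate 1, 468 without 1 dpci replicate 2 and 521, 561 and 545 without 3 dpci replicates 1, 2 and 3. Between 3 dpci and 7 dpci no gene did (0%), with 619 genes at an unadjusted p under 0.05, 37 genes at an adjusted p of 0.05 with DESeq2, 11 with edgeR's exact test and 0 with limma voom. Of the 61 separated higher genes, 4 were above and 5 below 1 dpci by the adjusted p. *mdka* was above it (log2 difference 4.14, adjusted p = 0.000983, mean 29.1 ± 11.12 CPM at 3 dpci and 1.603 CPM at 1 dpci), as was *serpinb1* (log2 difference 1.27, adjusted p = 0.0492), which did not pass with column totals (0.70, adjusted p = 0.315). *MFAP4 (1 of many)* was below it (log2 difference −4.59, adjusted p = 0.00193), and so were *fosl2* (−2.19, adjusted p = 0.0122) and *tagln2* (−2.73, adjusted p = 0.0423). For these 3 genes the level at 3 dpci was thus between those of sham and 1 dpci. Of the 43 separated lower genes, 10 were above and 3 below 1 dpci. *hal* (log2 difference 3.16, adjusted p = 0.00172), *cdo1* (3.32, adjusted p = 0.00509) and *slc25a32a* (2.93, adjusted p = 0.00525) were higher than at 1 dpci while lower than in sham, whereas *got1* was lower than at 1 dpci (−2.79, adjusted p = 0.00609). Among all 8412 genes tested, 644 were above and 329 below 1 dpci (264 and 540 with column totals). By list, 28 of 68 amino acid genes were above 1 dpci and 3 below (20 and 3 with column totals), 24 of 47 complement and coagulation genes above and 2 below (11 and 3), and 10 of 28 mitosis genes above and 1 below (5 and 1). In the opposite direction, 17 of 31 genes of the integrated stress response and serine synthesis, 12 of 43 proteasome genes and 11 of 66 ribosome biogenesis genes were below 1 dpci with none above, and 18, 17 and 16 with column totals. The number below also rose over all genes with column totals, from 329 to 540. Relative to the median of all genes, the medians of these 3 lists were −1.42, −0.91 and −0.93 by TMM. With column totals they were −1.46, −0.87 and −0.91.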

How the data were processed

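Total RNA of zebrafish liver pools was sequenced by the authors as paired-end reads of 75 bases after preparation with a kit for small amounts of stranded total RNA, while the labels name polyadenylated RNA. The submitters' processing notes name cutadapt 1.16, HISAT2 2.1.0, featureCounts 1.6.0 and limma 3.40.6 and the build danRer10, whereas the methods name Ensembl build 11, release 94. Strand setting, handling of reads with several positions and the filter behind the 8513 entries are not given in the sources used here. The deposited table held whole-number counts per gene and sample, which the authors had not normalized, and it holds 9 symbols turned into dates and 1 repeated name. Of the names, 94.1% matched a symbol or synonym in NCBI gene tables, from which no coordinates were used.

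The authors' own deposited CPM divide each count by its column total and were not used further. CPM values were computed here from the deposited counts with edgeR 4.0.16 in R 4.3.3 and TMM factors. All 17 samples were fitted with 1 mean per condition after filterByExpr, which removed 101 entries, and contrasts were tested with the quasi-likelihood F test. SE is the log2 fold change divided by the square root of F. The methods name edgeR and the same thresholds, although a legend gives the fold threshold without log2, tried as an alternative. Alternatives were DESeq2 1.42.0, edgeR's exact test, limma 3.58.1 with voom, other scalings, no filter, only both groups, a vitellogenin or pancreas covariate, a replicate block and the omission of each sample. The scripts were tested on simulated counts. Libraries were compared pairwise and none was a copy of another.

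The gene lists and the rule for named genes were chosen with earlier results of these data known. Named genes were those with an adjusted p of at most 0.05, the 15 of smallest P and 5 of widest gap per direction among called genes without overlap and a mean of at least 5 CPM, called members of the lists, members of highest level in lists with fewer than 3 calls, the 10 genes of highest mean, and genes the study labels for 3 dpci. The text describes a part of them and gives the rest as counts. Lists are described by counts and medians without a test, and p-values and intervals cover the spread between samples only. No sequence was printed because no genome or sequence table was used here.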

Additional observations from a re-analysis of the deposited data

Results flagged for a closer look

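Levels of 91 genes and the mitochondrial share were examined within the 4 samples at 3 dpci and within the 5 sham samples. In 25 of these comparisons within a group 1 sample lay far from the others by Dixon's ratio at the 95% level. For normally distributed values chance alone flags about 1 of 20 groups. The ratio was taken on CPM without a log and on genes chosen with the data known, so the 25 cannot be set against that rate. Of the 25, 5 were in 3 dpci replicate 1 and 5 in 3 dpci replicate 4, and the rest were spread over 3 dpci replicates 2 and 3 and the sham samples. In 3 dpci replicate 1 the far values were 12217 CPM for *c9*, 239 CPM for *cel.1*, 1192 CPM for *chia.1*, 164 CPM for *krt4* and 50.9 CPM for *tdh*. This sample thus held the highest level of markers of intestine, skin and pancreas among the injured samples. In 3 dpci replicate 4 they were 188 CPM for *hamp*, 42.6 CPM for *igfbp3*, 332 CPM for *si:dkey-22i16.7*, 76.6 CPM for *tagln2* and 0.237 CPM for *gamt*, where the other injured samples had no count. In 3 dpci replicate 2 *vtg3* stood out at 3.24 CPM. In 3 dpci replicate 3 the desaturase *scd* stood out at 16.1 CPM.

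Among the sham samples, replicate 1 was far from the others at 1675 CPM for *cdo1*, 1153 CPM for *gck*, 241 CPM for *hp*, 65.7 CPM for *inhbab* and 7.19 CPM for *mfap4*. Replicate 5 was far at 5312 CPM for *fga*, 9.33 CPM for *gmnn*, 7.095 CPM for *krt4* and 44.4 CPM for *vtg3*, and replicate 4 at 9.35 CPM for *arpc1b* and 10678 CPM for *hbba1*. Single values were 2.5002 CPM for *htra1b* in replicate 2 and 3048 CPM for *thrsp* in replicate 3. What set these samples apart was not tested.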

How the results depend on the processing

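The 303 called genes became 459 with column totals and 958 with a linear in place of a log2 threshold, and the 104 without overlap became 276 with the linear threshold. No other alternative moved these counts by over 1.5 times except single samples. The 1 gene with an adjusted p was the least stable count, at 2 with column totals, 4 with column totals without mitochondrial entries, 14 with the vitellogenin covariate, 2 with the pancreas covariate, 0 with only both groups, 130 with edgeR's exact test, 160 with DESeq2 and 3 with limma voom. Leaving out 1 sample gave 276 to 431 called genes, 101 to 250 without overlap and 0 to 50 with an adjusted p, the highest each time without sham replicate 5. The difference in mitochondrial share stayed between −13.3 and −10.7 percentage points. Against 1 dpci, the 973 genes became 473 with the vitellogenin covariate, 1779 with the exact test and 1578 with DESeq2, and 444 to 1208 without 1 sample. Against 7 dpci, the 0 genes became 2 with column totals, with and without mitochondrial entries, 11 with the exact test and 37 with DESeq2, and 0 to 2 without 1 sample. The cause of these moves was not tested.

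With the replicate number as a block, 38 genes had an adjusted p against sham. The deviations of same-numbered samples correlated at −0.17, −0.08, 0.13 and −0.03, and those of other pairs at −0.12 to 0.24. The numbers thus gave no sign of pairing, but these correlations cannot decide whether samples were paired. The block also leaves sham replicate 5, whose number no other sample has, without weight. Of 859 list medians under the alternatives, 102 moved by more than the standard error of the group difference. Of those, 32 moved with column totals and 17 with the pancreas covariate. With column totals some medians turned positive, including those of cytochrome P450 (0.18), ribosomal protein (0.18) and proteasome genes (0.24), beside 0.42 for all genes. Of 76 genes described with a call, *scpp8* not included, 45 kept it in every fit without 1 sample. The call was lost for 22 with the pancreas covariate, 24 with limma voom and 13 with column totals. The sign turned for *chia.1* (−0.030, and 5.98 at most without another sample) and *krt4* (−4.42) without 3 dpci replicate 1 and for *cpa5* (0.63) with the pancreas covariate, whose level is one of the groups' differences. It also turned for *vtg3*, at 1.17 without sham replicate 5, 1.02 with the block, which gives that sample no weight, and 1.42 with the vitellogenin covariate, while the lowest value without 1 sample was −5.08. Counts of 3 or fewer per library set the floor for genes with a group at 0, and at 4 and 5 samples per group the exact permutation test cannot give less than 0.00794.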
